A study of Mus musculus with 12 samples.

Results

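The MAP kinase phosphatases described here are 8 genes of the DUSP family, Dusp1, Dusp4, Dusp5, Dusp6, Dusp8, Dusp10, Dusp14 and Dusp16, chosen by name out of 22141 genes in the count table. Earlier results of these data were known when these genes and the gene lists below were chosen. Their counts beside the shares of all genes are therefore descriptions and not tests. Transcript counts were summed per gene and read in all 12 libraries. The study cultured islets of wild-type male mice aged 10 to 12 weeks, in lots of about 120 islets, in 4 conditions with 3 libraries apiece. One set had vehicle alone, another had vehicle and C3a, the next had palmitate, and the last had palmitate and C3a. Palmitate is a saturated fatty acid used in culture to load islets with lipid, and C3a is a fragment of complement component C3 that acts through the receptor C3ar1. Neither the dose nor the length of treatment is given in the sources used here. The 4 libraries numbered 1 make up sequencing batch 1, and the 8 libraries numbered 2 or 3 make up batch 2. In the column names of the deposited table, all libraries numbered 2 carry one date and all libraries numbered 3 another, so the number marks a date across the groups as well; what was done on that date is not stated. Nothing in the labels ties a library to its own animal or culture, so the p-values cover only the spread between libraries, which may be technical. An islet library holds RNA of beta cells and of every other islet and vascular cell type together.

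MAP kinases (ERK, JNK and p38) are switched on by phosphorylation of a threonine and a tyrosine in their activation loop, and DUSP phosphatases remove those phosphates. Several DUSP genes are themselves transcribed when a MAP kinase is active, which makes them negative feedback regulators. In beta cells, ERK is known to respond to glucose, calcium and cAMP, and JNK and p38 to stress. Dusp1, Dusp4 and Dusp5 encode inducible nuclear enzymes, Dusp6 a cytoplasmic enzyme selective for ERK, and Dusp8, Dusp10 and Dusp16 enzymes that act mainly on JNK and p38. Dusp14 encodes a small atypical member that lacks the kinase-binding domain of the others.

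Total counts ran from 22216420 to 26110989 in batch 1 and from 35876350 to 50264695 in batch 2, and all 8 genes passed the filter on low counts with 165 to 3459 counts per library. Summed beta cell markers, among them both insulin genes, took 157588 to 182817 CPM (counts scaled to library size) in vehicle, and no listed marker of any cell type was at or below 3 counts in every library. The third palmitate with C3a library stood apart in fibroblast and pericyte markers, with a summed level of 1449 CPM against 187 to 762 CPM over the other palmitate libraries. Without it the count of phosphatase genes past the test was 6 of 8 for palmitate alone, as with it, and 7 of 8 in place of 5 of 8 for palmitate with C3a. Over all genes, 4228 in place of 4005 passed for palmitate alone and 3849 in place of 4246 for palmitate with C3a.

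The 8 genes were already expressed in vehicle islets. Per unit of transcript length (TPM, computed from the counts and annotated lengths), Dusp5 was highest in vehicle at 23.2 ± 6.26 TPM (SD, n = 3), followed by Dusp10 at 22.2 ± 3.40 and Dusp4 at 15.4 ± 4.40 TPM. Dusp1 had 10.5 ± 4.17, Dusp8 9.99 ± 2.03 and Dusp14 9.50 ± 2.04 TPM. Dusp16 with 7.99 ± 0.810 and Dusp6 with 6.63 ± 0.812 TPM were lowest. The ranges of every pair of neighbours in this order overlapped over the 3 libraries. In palmitate the order changed at the top: Dusp4 had 40.3 ± 7.63, Dusp5 34.9 ± 4.98 and Dusp10 27.6 ± 4.90 TPM. Dusp4 moved from the 61.1st to the 82.7th percentile of per-length levels among the 15794 genes tested, while Dusp6 moved from the 42.1st to the 49.9th.

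**Figure D1:**
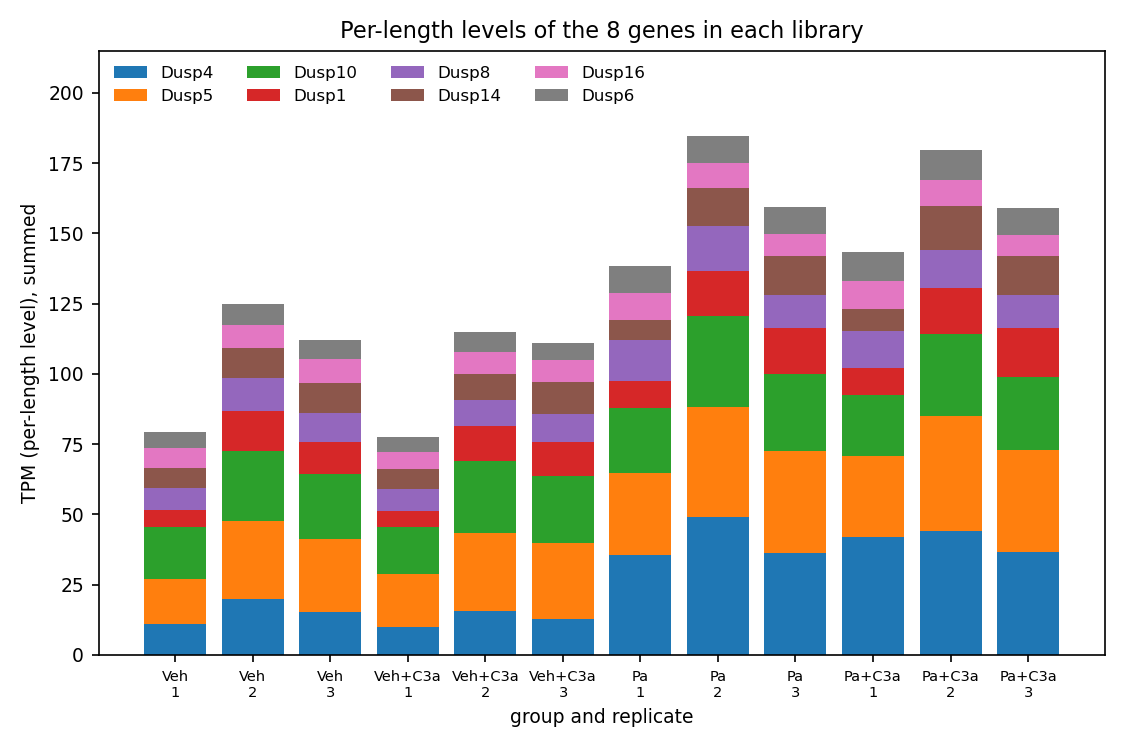
Per-length levels (TPM) of the 8 genes stacked in each of the 12 libraries, by group (Veh, vehicle; Pa, palmitate) and replicate. The stacks reached 79.3 to 125 TPM in vehicle and 138 to 184 TPM in palmitate, and the Dusp4 segment was the one that widened most.

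The summed level of the 8 genes was 79.3, 125 and 112 TPM in the 3 vehicle libraries and 138, 184 and 159 TPM in the 3 palmitate libraries. With C3a it was 77.6, 115 and 111 TPM in vehicle and 143, 180 and 159 TPM in palmitate. All 6 palmitate libraries lay above all 6 vehicle libraries in this sum, but the separation depended on Dusp4. The second vehicle library had 125 TPM with 19.8 from Dusp4, and the first palmitate library 138 TPM with 35.6 from Dusp4. Without Dusp4 the order of these libraries is reversed. Taken singly, 3 of the 8 genes separated in this way in CPM, against 9.02% of all genes. Dusp4 took 14.5% ± 1.23 (SD, n = 3) of the sum in vehicle and 25.0% ± 2.05 in palmitate. With C3a its share was 12.6% ± 0.961 in vehicle and 25.6% ± 3.22 in palmitate. The share of Dusp5 was 21.8% ± 1.47 in vehicle and 21.7% ± 0.951 in palmitate, and that of Dusp10 was 21.3% ± 1.70 and 17.1% ± 0.597.

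The question of the first comparison is how palmitate changed these genes in islets without C3a. In edgeR's quasi-likelihood test, with sequencing batch as a term and p-values adjusted by Benjamini-Hochberg over all genes tested, 6 of the 8 genes were higher in palmitate and 0 were lower. Over all genes tested 25.4% were called in the same comparison, 13.4% higher and 12.0% lower. With C3a in both arms, 5 of 8 were higher and 0 lower, where 13.8% of all genes were called higher and 13.1% lower. With the replicate number as a block in place of batch, which separates the dates within batch 2, 6 of 8 were higher in each comparison. Over all genes this block called 2398 higher without C3a and 2422 with C3a. Dusp10 with C3a was the 1 added call among the 8. In the fit with batch, 5 genes, Dusp1, Dusp4, Dusp5, Dusp6 and Dusp8, were higher in both comparisons, which was so for 11.0% of all genes. On the average of both palmitate effects 7 of 8 were higher, against 20.3% of all genes (39.7% in either direction). The median log2 fold change of the 8 genes was 0.43 without and 0.45 with C3a, and that of all genes was -0.02 and 0.01. Dusp4, Dusp5, Dusp6 and Dusp8 had all 3 palmitate libraries above all 3 vehicle libraries in CPM, as did 14.4% of all genes. With C3a this held for Dusp4, Dusp6 and Dusp8, against 15.2% of all genes. All 6 palmitate libraries lay above all 6 vehicle libraries for these 3 genes, as for 9.02% of all genes. Same-numbered pairs were higher in palmitate 3 of 3 times for 7 of 8 genes without C3a (27.2% of all genes) and for 6 of 8 with C3a (28.4%). Without the batch term 2 of 8 passed in each comparison, Dusp4 and Dusp6, beside 1841 of all genes without C3a and 2074 with C3a.

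**Figure D2:**
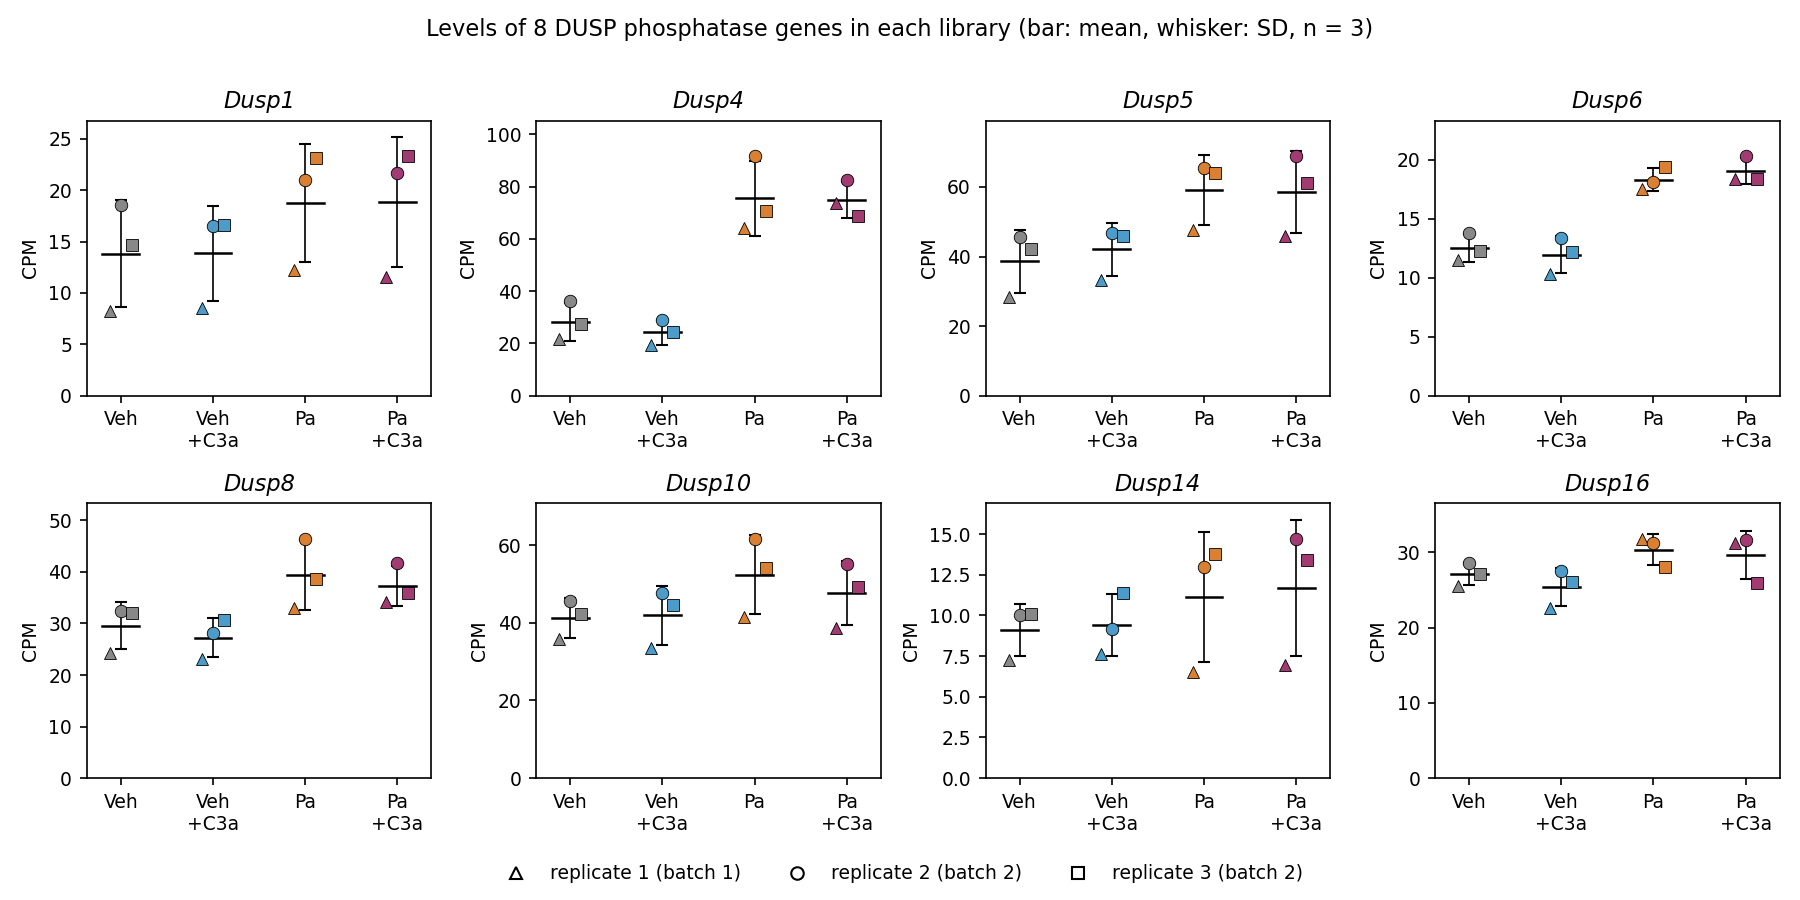
CPM of each gene in the 12 libraries, one panel per gene with its own axis from 0, by group (Veh, vehicle; Pa, palmitate) with the mean and SD of 3. Dusp4, Dusp6 and Dusp8 have all 6 palmitate libraries above all 6 vehicle libraries. Replicate 1 (triangles) is the lowest within each group for Dusp1, Dusp5, Dusp8, Dusp10 and Dusp14.

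Promoters are shown for Dusp1 and Dusp8 because these 2 hold the full cAMP response element TGACGTCA among the 7 members matched by symbol in the RefSeq promoter sequences (GRCm38.p6, 250 bases before to 50 after the annotated start). Dusp4, the gene with the highest fold in palmitate, had no matched entry, so its promoter was not searched. Capitals mark the core TGACG or its reverse complement, and where 2 cores overlap they form TGACGTCA. The Dusp1 promoter lies at chr17:26508423-26508722 and the Dusp8 promoter at chr7:142095235-142095534, both on the minus strand.
Dusp1: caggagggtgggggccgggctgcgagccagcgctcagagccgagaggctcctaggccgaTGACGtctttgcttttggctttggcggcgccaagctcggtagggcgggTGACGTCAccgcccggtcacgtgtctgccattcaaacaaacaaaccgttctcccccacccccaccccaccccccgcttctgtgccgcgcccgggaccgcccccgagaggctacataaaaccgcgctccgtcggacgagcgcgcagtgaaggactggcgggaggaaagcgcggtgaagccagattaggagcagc
Dusp8: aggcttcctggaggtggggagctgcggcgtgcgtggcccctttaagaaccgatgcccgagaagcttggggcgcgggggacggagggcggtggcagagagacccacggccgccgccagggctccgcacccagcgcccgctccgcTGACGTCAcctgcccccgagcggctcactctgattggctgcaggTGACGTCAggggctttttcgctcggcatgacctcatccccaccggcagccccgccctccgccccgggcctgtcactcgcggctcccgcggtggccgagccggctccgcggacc
Dusp1 held TGACGTCA once, starting 143 bases before the start, and Dusp8 held it at 107 and 63 bases before. Of 32851 promoters of the same length, 1.79% held this element at least once and 0.0396% at least 2 times. G and C made up 67.0% of the bases in the Dusp1 promoter and 73.3% in that of Dusp8. The 7 promoters ranged from 57.3% to 73.3%, against a median of 52.7% over all promoters. The shares of all promoters given here are not matched for this content. The core TGACG, which lies within TGACGTCA on each strand, was also found once in Dusp5 and once in Dusp16, and in 20.8% of all promoters. No match was found in the 7 promoters for the AP-1 site TGANTCA (7.81% of all promoters) or the ATF4 core TGATGNAA (3.97%). The ETS site CCGGAA was found in Dusp14 alone of the 7 and in 14.9% of all promoters, and other forms of the ETS site were not searched. Both strands were searched, and a match describes letters in this window only.

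Among the inducible nuclear enzymes, Dusp4, which acts on ERK and JNK, had the highest fold of the 8 genes. It was counted as 1 protein-coding transcript on chromosome 8 (34807297 to 34819894, plus strand, GRCm38). Its CPM was 21.6, 36.1 and 27.4 in vehicle and 64.3, 91.6 and 70.7 in palmitate. Islets given C3a had 19.3, 29.0 and 24.3 in vehicle and 73.6, 82.5 and 68.6 in palmitate. The lowest palmitate library lay above the highest vehicle library by a wide margin. Palmitate raised Dusp4 2.67-fold without C3a (log2 fold change 1.42 ± 0.16 SE, edgeR adjusted p = 0.000243, higher in 3 of 3 same-numbered pairs). With C3a the rise was 3.12-fold (1.64 ± 0.16, adjusted p = 0.0001, 3 of 3 pairs).

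Dusp5, a nuclear phosphatase specific for ERK, lies on chromosome 19 (53529109 to 53542431, plus strand). Its CPM was 28.3, 45.5 and 42.1 in vehicle and 47.7, 65.6 and 64.1 in palmitate. With C3a it was 33.4, 46.8 and 46.0 in vehicle and 45.8, 68.8 and 61.1 in palmitate. Without C3a the groups did not overlap, and with C3a the batch 1 palmitate library fell inside the vehicle range. Dusp5 rose 1.54-fold without C3a (log2 fold change 0.62 ± 0.06 SE, edgeR adjusted p = 2.8e-05, 3 of 3 pairs) and 1.39-fold with C3a (0.48 ± 0.06, adjusted p = 0.000133, 3 of 3 pairs). An annotated antisense gene shares 547 of its 2473 exon bases on the opposite strand, and since the strand setting of the counting is not given in the sources used here, reads there cannot be assigned with certainty.

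Dusp1, the nuclear enzyme that dephosphorylates p38, JNK and ERK and is a classical immediate-early gene, lies on chromosome 17 (26505590 to 26562128, minus strand). Its CPM was 8.23, 18.6 and 14.7 in vehicle and 12.2, 21.0 and 23.1 in palmitate. Islets given C3a had 8.53, 16.5 and 16.6 in vehicle and 11.6, 21.7 and 23.3 in palmitate. The groups overlapped, since the batch 1 palmitate libraries were lower than the batch 2 vehicle libraries, but within each batch every palmitate library was above every vehicle library. Dusp1 rose 1.37-fold without C3a (log2 fold change 0.45 ± 0.09 SE, edgeR adjusted p = 0.00282, 3 of 3 pairs) and 1.36-fold with C3a (0.45 ± 0.09, adjusted p = 0.00275, 3 of 3 pairs). The protein-coding transcript Dusp1-202 held 83.6% to 98.4% of the counts. For it alone the rise without C3a was 0.39 on the log2 scale and did not pass (adjusted p = 0.0749 over all transcripts), while its average palmitate effect did (0.41 ± 0.07, adjusted p = 0.00648). Of the 2 retained-intron transcripts, Dusp1-204 was higher on the average of both palmitate effects (1.54 ± 0.37, edgeR adjusted p = 0.0298). It had only 136 counts over all 12 libraries, and its share of the gene's counts ranged from 0.635% to 5.50% across libraries. The mean share was 1.51% in vehicle, 1.04% in vehicle with C3a, 3.42% in palmitate and 2.21% in palmitate with C3a.

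Dusp6, the cytoplasmic phosphatase selective for ERK, lies on chromosome 10 (99263231 to 99267489, plus strand). Its CPM was 11.5, 13.8 and 12.3 in vehicle and 17.5, 18.1 and 19.4 in palmitate. With C3a it was 10.3, 13.4 and 12.2 in vehicle and 18.4, 20.3 and 18.4 in palmitate. The 6 palmitate libraries lay above the 6 vehicle libraries, and the libraries of a group were closer to each other than for the nuclear enzymes. Dusp6 rose 1.47-fold without C3a (log2 fold change 0.55 ± 0.08 SE, edgeR adjusted p = 0.000456, 3 of 3 pairs) and 1.59-fold with C3a (0.67 ± 0.08, adjusted p = 0.000117, 3 of 3 pairs).

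Of the enzymes that act mainly on JNK and p38, Dusp8 rose in both comparisons. It lies on chromosome 7 (142079490 to 142095843, minus strand), and its promoter is the one printed above with 2 full elements. Its CPM was 24.3, 32.4 and 32.1 in vehicle and 33.0, 46.4 and 38.7 in palmitate. Islets given C3a had 23.1, 28.1 and 30.6 in vehicle and 34.1, 41.7 and 36.0 in palmitate. The lowest palmitate value was 33.0 and the highest vehicle value 32.4, so all 6 palmitate libraries were higher. Dusp8 rose 1.33-fold without C3a (log2 fold change 0.41 ± 0.08 SE, edgeR adjusted p = 0.00311, 3 of 3 pairs) and 1.37-fold with C3a (0.45 ± 0.08, adjusted p = 0.00171, 3 of 3 pairs). A bidirectional-promoter RNA shares 66 of its 4870 exon bases on the opposite strand.

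Dusp10, which inactivates p38 and JNK, lies on chromosome 1 (184013302 to 184075636, plus strand). Its CPM was 35.7, 45.7 and 42.3 in vehicle and 41.5, 61.6 and 54.0 in palmitate. With C3a it was 33.4, 47.6 and 44.7 in vehicle and 38.7, 55.1 and 49.1 in palmitate. Groups overlapped in both comparisons, and each same-numbered palmitate library was above its vehicle library. Dusp10 rose 1.26-fold without C3a (log2 fold change 0.34 ± 0.07 SE, edgeR adjusted p = 0.00358). With C3a the value was 0.18 ± 0.07 and did not pass (adjusted p = 0.0646), though it passed with the replicate block in place of batch (0.18, adjusted p = 0.0122). It also passed without the second palmitate library (0.18, adjusted p = 0.0432) or the third palmitate with C3a library (0.23, adjusted p = 0.0342). No other library left out gave a call, with values down to 0.14 and edgeR adjusted p up to 0.223. The difference between both palmitate effects was not called (interaction -0.15, 95% interval -0.36 to 0.06, adjusted p = 1).

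Dusp16, selective for JNK, lies on chromosome 6 (134715468 to 134792625, minus strand). Its CPM was 25.6, 28.6 and 27.2 in vehicle and 31.8, 31.3 and 28.0 in palmitate. Islets given C3a had 22.6, 27.5 and 26.1 in vehicle and 31.3, 31.6 and 26.0 in palmitate. The third palmitate library overlapped the vehicle range in both comparisons. Neither comparison passed alone: the log2 fold change was 0.16 ± 0.09 SE without C3a (edgeR adjusted p = 0.245) and 0.22 ± 0.09 with C3a (adjusted p = 0.112, or 0.0167 without the third palmitate with C3a library, where it was 0.32). The average of both was 0.19 ± 0.07 (adjusted p = 0.0394). That call was lost when any of 8 libraries was left out, namely vehicle 1 and 3, vehicle with C3a 1 and 3, palmitate 1 and 2 and palmitate with C3a 1 and 2, with adjusted p from 0.0608 to 0.112. In batch 2 alone the average was 0.10 (adjusted p = 0.353).

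Dusp14, the atypical member, lies on chromosome 11 (84048041 to 84069261, minus strand). Its CPM was 7.28, 10.0 and 10.1 in vehicle and 6.52, 13.0 and 13.8 in palmitate. With C3a it was 7.63, 9.14 and 11.4 in vehicle and 6.94, 14.7 and 13.4 in palmitate. In batch 1 the palmitate library was the lower of each pair, and in batch 2 every palmitate library was above every vehicle library. The log2 fold change was 0.25 ± 0.14 SE without C3a (edgeR adjusted p = 0.227, higher in 2 of 3 pairs) and 0.28 ± 0.14 with C3a (adjusted p = 0.178, 2 of 3 pairs). In batch 2 alone the comparison with C3a passed (0.45, edgeR adjusted p = 0.0442). The average was 0.27 ± 0.10 and missed the threshold (adjusted p = 0.0538). It passed without any one replicate 1 library: 0.32 without vehicle 1 (adjusted p = 0.0312), 0.32 without vehicle with C3a 1 (0.0267), 0.33 without palmitate 1 (0.0267) and 0.33 without palmitate with C3a 1 (0.0245). DESeq2's Wald test also called it (0.27, adjusted p = 0.045). When a library numbered 2 or 3 was left out, edgeR did not call this average, with values down to 0.19 and adjusted p up to 0.144. The most abundant transcript, Dusp14-202, held 75.3% to 100% of the counts and on its own gave 0.11 ± 0.13 (adjusted p = 0.74).

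**Figure D3:**
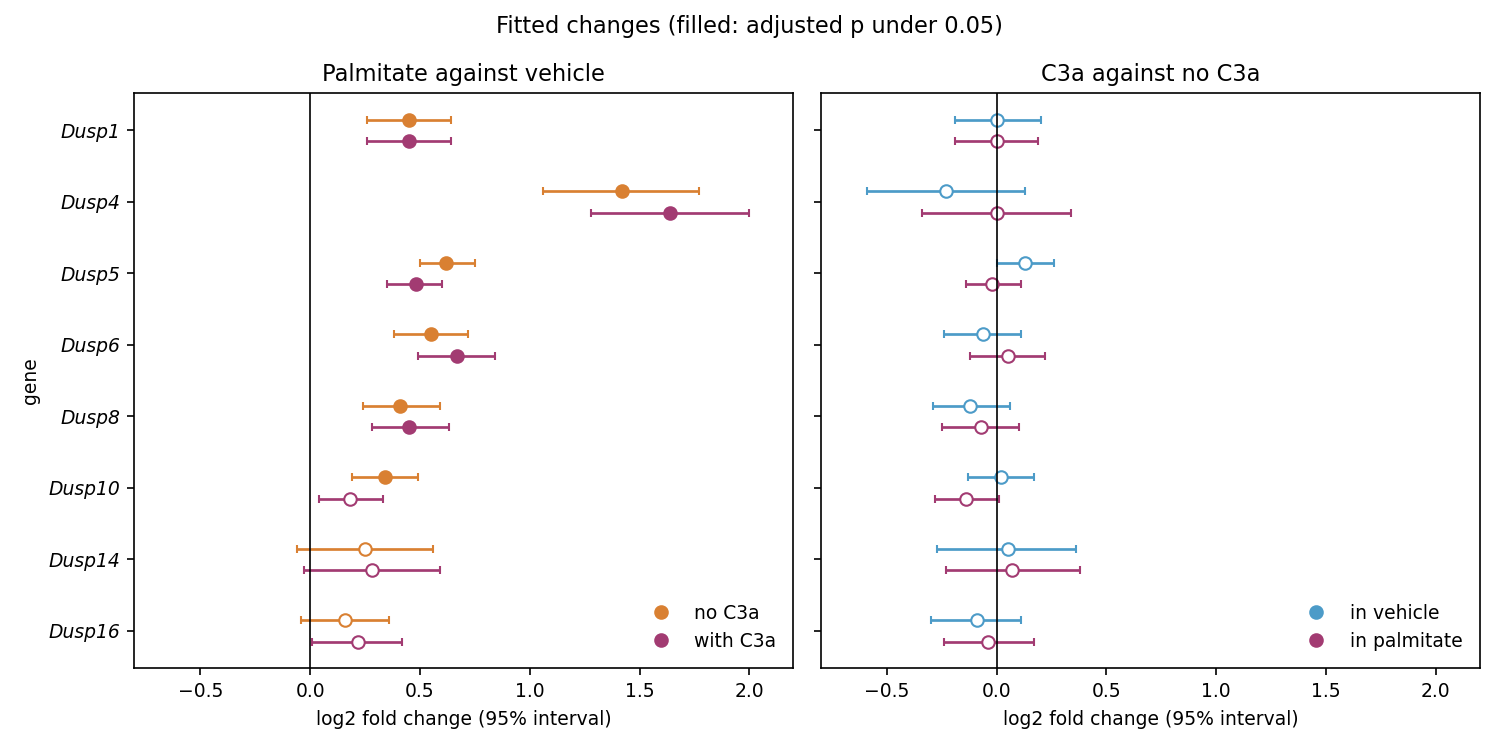
Log2 fold change with its 95% interval for each gene from edgeR, for palmitate against vehicle (left) and C3a against no C3a (right). Palmitate values range from 0.16 (Dusp16) to 1.64 (Dusp4 with C3a), and every C3a interval crosses 0 except that of Dusp5 in vehicle, which starts just above it; no C3a point is filled.

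The second question was whether C3a changed these genes. In edgeR's test 0 of the 8 genes were called in C3a within palmitate, C3a within vehicle, the average of both C3a effects or the interaction, and among all genes tested 0%, 0%, 0.00633% and 0% were called. DESeq2's Wald test also called 0 of the 8 in each. At an unadjusted p under 0.05 the numbers were 0, 1, 0 and 0 of the 8 genes, beside 430, 347, 555 and 251 of 15794, and the 1 member was Dusp5 in vehicle. The 1 gene called over all genes on the average of both C3a effects was no longer called with the replicate block in place of batch. The intervals give the size of change that remains compatible with the libraries. For Dusp4 the log2 fold change with C3a was 0.00 in palmitate (95% interval -0.34 to 0.34) and -0.23 in vehicle (-0.59 to 0.13). In vehicle, Dusp4, Dusp6, Dusp8 and Dusp16 were each lower with C3a in 3 of 3 pairs, that is 4 of 8 genes, against 14.7% of all genes. Their unadjusted edgeR p was 0.187, 0.448, 0.181 and 0.332 in that order, and 1 Dusp6 pair differed by only -0.01. These genes were read in the same libraries, so they are not 4 separate observations. Their Pearson r of 0.77 to 0.98 covers all 12 libraries and includes the shared palmitate rise. How far they vary together among vehicle libraries alone was not tested. Dusp5 in vehicle had an unadjusted edgeR p of 0.0478 (log2 fold change 0.13, interval 0.00 to 0.26, edgeR adjusted p = 1). It was higher with C3a in 3 of 3 pairs, as were 13.7% of all genes. In palmitate its value was -0.02 (-0.14 to 0.11). Dusp6 had 0.05 (-0.12 to 0.22) in palmitate and -0.06 (-0.24 to 0.11) in vehicle. Dusp10 in palmitate was lower in 3 of 3 pairs, as were 13.8% of all genes, by -0.14 (-0.28 to 0.01, adjusted p = 1). These values do not show that C3a left the genes unaltered.

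The palmitate effect itself was compared with and without C3a through the interaction. Dusp4 had the largest positive difference, 0.23 ± 0.22 SE (95% interval -0.27 to 0.73), and Dusp5 and Dusp10 the most negative ones, -0.15 ± 0.08 (-0.33 to 0.03) and -0.15 ± 0.10 (-0.36 to 0.06). All 8 had an edgeR adjusted p of 1.

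**Figure D4:**
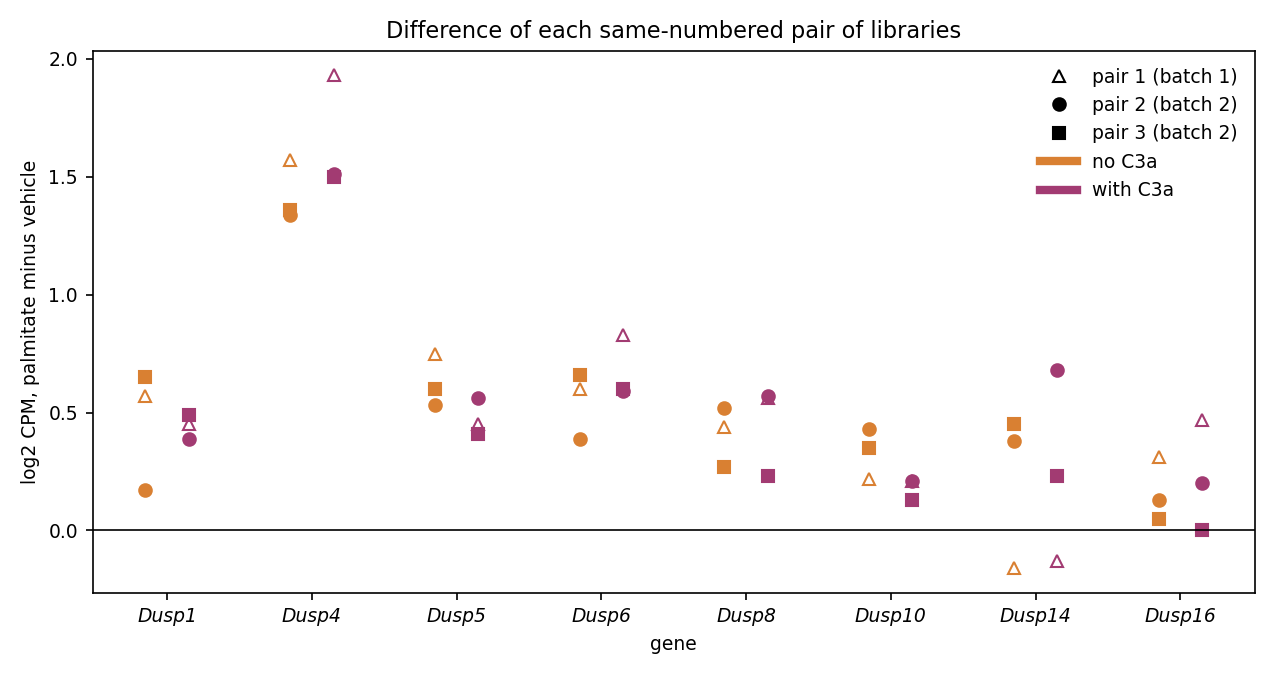
Difference in log2 CPM between the palmitate and the vehicle library of the same replicate number for each gene, without C3a (orange) and with C3a (purple); open triangles are batch 1. Dusp14 is below 0 in both batch 1 pairs and above 0 in the 4 batch 2 pairs, and Dusp4 is highest with 1.34 to 1.93.

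Sequencing batch was a large part of the spread of several members. In the same edgeR fit 5 of the 8 genes were higher in batch 2 than in batch 1, against 19.5% of all genes: Dusp1 by 0.94 on the log2 scale, Dusp14 by 0.73, Dusp5 by 0.51, Dusp10 by 0.42 and Dusp8 by 0.32. Batch 2 libraries also had more counts, and what the batch difference reflects was not tested. Within batches the palmitate difference kept its sign for 7 genes. For Dusp4 the mean difference was 1.75 in batch 1 and the fitted value in batch 2 alone was 1.43 ± 0.14 SE (edgeR adjusted p = 0.00077). The corresponding values were 0.51 and 0.43 ± 0.08 (adjusted p = 0.00516) for Dusp1, 0.60 and 0.53 ± 0.05 (0.000235) for Dusp5, 0.72 and 0.56 ± 0.07 (0.000752) for Dusp6, 0.50 and 0.40 ± 0.07 (0.00427) for Dusp8, and 0.22 and 0.28 ± 0.06 (0.0094) for Dusp10. For Dusp16 they were 0.39 and 0.10 ± 0.07 (0.353). Dusp14 had -0.15 in batch 1 and 0.43 ± 0.09 in batch 2 (adjusted p = 0.0067). A palmitate by batch term, chosen after the data were seen, was called for none of the 8 genes, and for 0.361% of all genes. For Dusp14 the term was 0.58 ± 0.15 (unadjusted p = 0.00229, adjusted p = 0.193) and for Dusp16 it was -0.29 ± 0.12 (unadjusted p = 0.0292, adjusted p = 0.493).

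The other DUSP genes did not share one direction, and over all genes 20.3% were higher and 19.4% lower on the average. Of the 3 remaining classical MAP kinase phosphatases, Dusp2 had too few counts to be tested (70 in all libraries). Dusp7, selective for ERK, gave -0.13 ± 0.05 SE on the average of both palmitate effects (edgeR adjusted p = 0.0592), and Dusp9 0.42 ± 0.22 (adjusted p = 0.168). Of 17 tested other dual-specificity phosphatases, 3 were higher and 3 lower on that average. Dusp3, which dephosphorylates ERK and JNK, was higher (0.49 ± 0.04, adjusted p = 1.4e-06), as was Dusp22 (0.33 ± 0.06, adjusted p = 0.000743). Dusp19 was lower (-0.46 ± 0.05, adjusted p = 1.41e-05), and so was Dusp26 (-0.37 ± 0.08, adjusted p = 0.0041), which in batch 2 alone had -0.35 (adjusted p = 0.0684).

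Genes of the kinase pathways were called in both directions on the average of both palmitate effects, in which 20.3% of all genes were higher and 19.4% lower. Of 30 tested receptors and RAS activators 5 were higher and 7 lower, shares near those of all genes. Rap1b, a small GTPase that links cAMP to ERK, was higher (0.57 ± 0.05 SE, edgeR adjusted p = 4.39e-06), and Rapgef4, the cAMP-activated exchange factor for Rap proteins, was lower (-0.34 ± 0.03, adjusted p = 9.57e-06). Of 23 ERK cascade genes 7 were higher and 3 lower, among them Mapk3, which encodes a main ERK kinase, lower by -0.33 ± 0.04 (adjusted p = 2.8e-05), and Mapk4, an atypical kinase, higher by 0.88 ± 0.09 (adjusted p = 1.94e-05). Of 26 JNK cascade genes 5 were higher and 8 lower, with Jun, the transcription factor targeted by JNK, higher by 0.59 ± 0.09 (adjusted p = 0.000395, or 0.138 without the batch term). Of 19 p38 cascade genes 5 were higher and 4 lower, with Taok2 lower by -0.42 ± 0.04 (adjusted p = 1.09e-05) and Map2k3, which activates p38, higher by 0.29 ± 0.05 (adjusted p = 0.000795). The medians were 0.00, 0.07, -0.01 and 0.04 in that order, and 0.00 over all genes.

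Genes known to be induced by ERK, with its feedback inhibitors, were mostly higher. Of 27 tested, 19 were higher and 0 lower on the average, against 20.3% and 19.4% of all genes, with a median of 0.61. The single comparisons gave 17 higher and 0 lower without C3a (13.4% and 12.0% of all genes), and 19 and 0 with C3a (13.8% and 13.1%). Etv5, a transcription factor induced by ERK, had vehicle levels of 17.7, 25.5 and 23.1 CPM and palmitate levels of 45.3, 52.3 and 48.4 (average effect 1.09 ± 0.06 SE, edgeR adjusted p = 1.74e-07). Phlda1 had vehicle levels of 8.23, 11.8 and 12.8 CPM and palmitate levels of 16.1, 25.2 and 27.4 (1.02 ± 0.06, adjusted p = 2.54e-07). The palmitate libraries of both genes lay above all vehicle libraries. Maff, a small MAF transcription factor, was also higher (1.38 ± 0.09, adjusted p = 1.79e-06).

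Of 22 tested genes in the cAMP list, 11 were higher and 4 lower on the average, against 20.3% and 19.4% of all genes, with a median of 0.30. Beside cAMP-responsive genes the list holds the regulators Creb1, Crebbp, Crtc1, Crtc2 and Crtc3. The 4 lower genes were Pde4b (-0.30), Crtc1 (-0.28), Pcsk1 (-0.18) and Crtc3 (-0.11). Vgf, a secreted granule protein gene, had vehicle levels of 53.6, 90.0 and 74.8 CPM and palmitate levels of 278, 387 and 344 (2.29 ± 0.11 SE, edgeR adjusted p = 5.59e-07). Nr4a2, an immediate-early nuclear receptor, was higher by 0.90 ± 0.06 (adjusted p = 7.05e-07) and Ppargc1a, a coactivator of mitochondrial genes, by 1.46 ± 0.11 (adjusted p = 2.15e-06). Fosb is in both of these lists. No gene of any MAP kinase or cAMP list was called by edgeR in a C3a comparison.

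**Figure D5:**
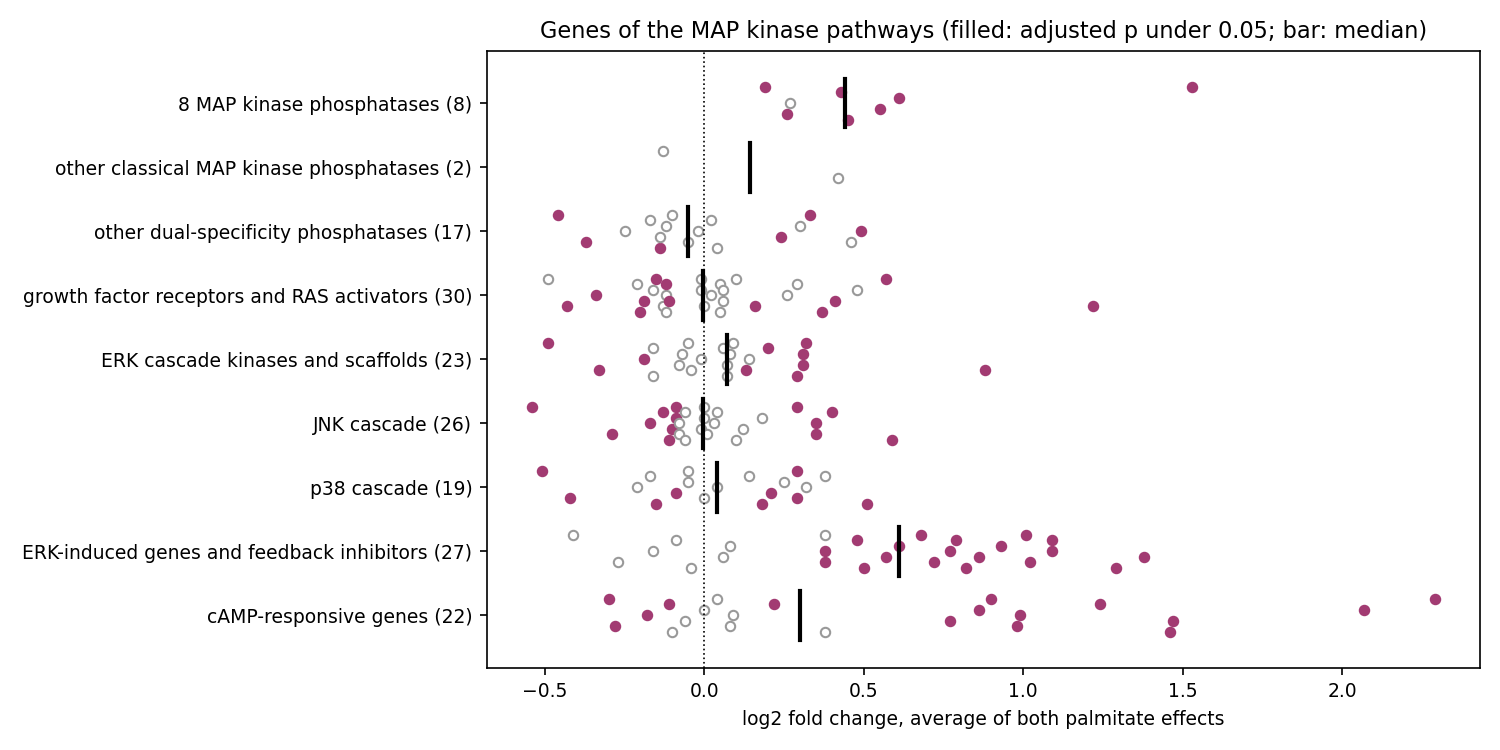
Average palmitate effect (log2 fold change) of every tested gene in the 8 phosphatase genes and in 8 lists of related genes, with the number of genes in brackets. The median is 0.44 for the 8 genes, 0.61 for ERK-induced genes and 0.30 for the cAMP list. It is 0.14 for the 2 tested other classical phosphatases and -0.05 for the 17 other dual-specificity phosphatases. The ERK, p38 and receptor lists have 0.00 to 0.07 and the JNK list -0.01.

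Cell type markers moved beside these genes. On the average of both palmitate effects, where 19.4% of all genes were lower and 20.3% higher, 5 of 8 beta cell markers were lower and 0 higher, and their summed level ran from 157588 to 182817 CPM in vehicle, 169477 to 190543 in vehicle with C3a, 142619 to 173817 in palmitate and 132838 to 163176 in palmitate with C3a. The beta cell transcription factor gene Pdx1 was lower by -0.52 ± 0.04 SE (edgeR adjusted p = 2.19e-06) and the glucose transporter gene Slc2a2 by -0.92 ± 0.08 (adjusted p = 1.48e-05). Of 7 endothelial markers 6 were lower and 0 higher, with summed levels of 201 to 283 CPM in vehicle, 184 to 258 with C3a, 108 to 206 in palmitate and 118 to 217 in palmitate with C3a. Lower calls were also made for 3 of 4 Schwann cell, 2 of 7 fibroblast and pericyte and 1 of 7 macrophage markers, and 2 macrophage markers were higher. Of 6 alpha cell markers 1 was higher and 2 were lower, of 2 PP cell markers 1 was higher, of 5 duct markers 1 was higher, and of 4 tested lymphocyte markers 1 was lower. Summed duct markers ran from 398 to 471 CPM in vehicle, 391 to 455 in vehicle with C3a, 474 to 556 in palmitate and 516 to 586 in palmitate with C3a. Among them Spp1, called higher in both palmitate comparisons, had 101, 141 and 106 CPM in vehicle and 251, 180 and 201 in palmitate. Krt7 had 282, 293 and 324 CPM in vehicle and 269, 264 and 308 in palmitate. None of 7 acinar or 3 delta cell markers was called. In whole islets, fewer cells of a type and less RNA per cell cannot be told apart. The part of these markers in the phosphatase results was not tested.

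The members followed one another to different degrees. Over the 12 libraries, after each batch's mean was subtracted from log2 CPM, Dusp4 and Dusp6 had a Pearson r of 0.98 and Dusp1 and Dusp5 of 0.93, while Dusp14 and Dusp16 had 0.04. The libraries share treatment and batch, so these values are a description only. By the same measure over 10599 protein-coding genes, the 3 genes most like Dusp4 were Cnnm1, Retreg1 and Tent5a (each 0.99), and those most like Dusp6 were Yrdc, Klf4 and Ybx3 (each 0.99). The nearest to Dusp1 was Ndufaf4 (0.99), to Dusp5 Rad23b (0.99), to Dusp8 Mum1l1 (0.99) and to Dusp10 Arcn1 (0.96). For Dusp14 it was Ndn (0.95) and for Dusp16 Ralgapa2 (0.96).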

How the data were processed

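RNA sequencing libraries were prepared from polyadenylated RNA for 12 libraries of cultured islets with a strand-marking kit, per the labels' protocols. The authors deposited whole-number estimated counts per transcript (expected counts, not normalized). Per the submitters' processing notes, kallisto, DESeq2 and GRCm38 were used, with no role or version stated; the strand setting is not given in the sources used here. Of 71524 transcripts, 69942 matched GENCODE M21 by identifier and were summed to 22141 genes and rounded; 1582 did not match and stayed out.

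Counts were filtered with filterByExpr (15794 genes), scaled by TMM and fitted by robust quasi-likelihood in edgeR 4.0.16 under R 4.3.3, with group and batch as terms and 7 residual degrees of freedom. Tests were two-sided, and a gene was called at an adjusted p under 0.05. Each standard error is the size of the log2 fold change over the root of its F statistic. CPM are counts scaled to TMM library size. Same-numbered libraries deviated together from their group means (lowest correlation 0.395 over 18 pairs). Differences between replicates 2 and 3, all within batch 2, had a lowest correlation between groups of 0.080 over 6 pairs. These are different measures, and what the shared deviation reflects was not tested. Alternatives were other size factors, DESeq2 1.42.0, no filter, a replicate block, no batch term, batch 2 alone, each library left out, and the main transcript alone. The members and lists were chosen with earlier results of these data known. Named beside the members were, from each list, up to 3 genes with the smallest p per comparison, Dusp26, and for likeness the top 3 protein-coding genes by Pearson r. The fit was tested on simulated data.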

Additional observations from a re-analysis of the deposited data

Results flagged for a closer look

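The palmitate effect on Dusp14 differed between the sequencing batches by 0.58 ± 0.15 SE on the log2 scale (edgeR, unadjusted p = 0.00229, adjusted p = 0.193 over all genes). Both batch 1 pairs were lower in palmitate (-0.16 and -0.13) and all 4 batch 2 pairs were higher (0.38, 0.45, 0.68 and 0.23). The batches differ in depth as well, and the cause was not tested.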

How the results depend on the processing

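Across the 3 palmitate comparisons every value of the 8 genes kept its direction under every alternative run. Without the batch term, 2, 2 and 4 of the 8 genes passed (without C3a, with C3a, average) beside 1841, 2074 and 4079 of all genes; fewer libraries in batch 2 alone left 2058 and 2331 genes for the single comparisons. With the replicate block in place of batch, 6, 6 and 7 of the 8 genes passed, 4612, 4779 and 6832 of all genes did, and the average of both C3a effects called 0 genes; the block changed no call of the 8 genes other than Dusp10 with C3a. With each library left out, the genes past the test numbered 6 to 6, 5 to 7 and 6 to 7 of the 8. Over all genes they numbered 2760 to 4228, 3023 to 4260 and 5528 to 6200. For C3a, DESeq2's Wald test called 1 gene within palmitate, 2 within vehicle and 2 on the average, batch 2 alone called 1 within palmitate, no low-count filter gave 3 within vehicle, and no batch term gave 0 on the average. With each library left out, C3a called 0 to 1 genes in each treatment and 0 to 2 on the average. The cause of these shifts was not tested.

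Values near 0 for C3a changed sign, none past the threshold. C3a within palmitate: Dusp1 was -0.01 with DESeq2 size factors, the Wald test and no filter, and Dusp4 -0.01 with these, without the batch term and for its transcript alone, and -0.11 in batch 2. C3a within vehicle: Dusp1 was -0.01 in batch 2 and -0.02 for its main transcript. Average of both C3a effects: Dusp1 was 0.00 with no filter and Dusp6 0.01 in batch 2. Interaction: Dusp1 was 0.01 without the batch term, 0.04 in batch 2 and 0.04 for its transcript, Dusp8 -0.01 in batch 2 and Dusp14 -0.07 for its transcript. With each library left out, C3a within palmitate ranged from -0.05 to 0.03 for Dusp1, -0.14 to 0.12 for Dusp4, -0.07 to 0.03 for Dusp5, -0.14 to 0.01 for Dusp8, -0.04 to 0.17 for Dusp14 and -0.11 to 0.06 for Dusp16. C3a within vehicle ranged from -0.07 to 0.12 for Dusp1, -0.03 to 0.07 for Dusp10 and -0.08 to 0.18 for Dusp14. The average of both C3a effects ranged from -0.04 to 0.06 for Dusp1, -0.04 to 0.02 for Dusp6 and 0.00 to 0.13 for Dusp14. The interaction ranged from -0.12 to 0.07 for Dusp1, -0.03 to 0.12 for Dusp8, -0.11 to 0.15 for Dusp14 and -0.03 to 0.15 for Dusp16. Counts per library ran from 165 to 676 for Dusp14 and from 229 to 929 for Dusp6; how far depth limits each gene was not tested.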
